A study of Homo sapiens with 5 samples.

Results

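H3K27ac was measured by ChIP-seq in HCT116 cells at 9 genes that encode transcription factors of epithelial and intestinal cells, namely KLF5, SOX9, ELF3, EHF, GRHL2, CDX1, CDX2, HNF4A and GATA6. Peaks were taken by position alone, with a center within 20 kb of any annotated start site of one of these genes, and 26 of the 20087 peaks of the deposited table met this rule. HCT116 cells derive from a human colorectal carcinoma. All samples were of the engineered derivative HCT116 CMV-osTIR1 RAD21-mAC, which carries the plant auxin receptor osTIR1 and a RAD21 protein tagged for degradation. All cells were kept in 0.1% DMSO for 6 hours, after which 2 libraries were made from cells given IFN-β at 1000 unit/ml for 60 min and 2 from cells not further treated, labelled as 0 min. A further library, of input DNA labelled 60 min, served the authors as background for peak calling. The labels do not say whether the libraries of a group came from separate cultures, and the added 60 min of culture cannot be told apart from the IFN-β itself. The table holds a mean for each group and no value per library, so no SD between libraries could be given and no test between the groups was run. Every signal below is the authors' group mean, as log2 of mean normalized reads per peak.

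H3K27ac is laid down by acetyltransferases on nucleosomes of active promoters and enhancers, and genes that define a cell type often carry several such peaks close together. Of the factors considered here, ELF3 and EHF belong to the ETS family, KLF5 is a Krüppel-like zinc finger protein of proliferating crypt cells, and GRHL2 keeps up epithelial junction genes. SOX9 marks the lower crypt and is a target of Wnt signalling. CDX1 and CDX2 are the homeobox proteins that specify the intestine, HNF4A is a nuclear receptor of enterocytes and liver cells, and GATA6 is a zinc finger protein of the endoderm.

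Promoter sequences of 4 of these genes are shown because the H3K27ac pattern around them differed, followed by the center of the strongest KLF5 peak. They were taken from the RefSeq promoter table (GRCh38.p14), which held 9 windows for 6 of the 9 genes, and each runs from 250 bases before to 50 bases after a start site on the strand of the gene. Capitals mark exact matches, on either strand, to short words for the binding sites of the families concerned. The words were CCNCNCCC for KLF factors, ACAATGG for SOX factors, AGGAAGT for ETS factors, AACNGGTT for GRHL factors and CNATAAA for CDX factors. Those for the other families were CAAAGTC for HNF4, AGATAA for the GATA factors, TGANTCA for AP-1 and ATCAAAG for TCF factors. The central part of the interferon-sensitive response element (ISRE) was also sought, as GAAA on both sides of 2 free bases. A capital stretch is a match of letters and was not shown to be bound.
KLF5, upstream start, chr13:73054726-73055025, strand +, overlapped by 0 peaks: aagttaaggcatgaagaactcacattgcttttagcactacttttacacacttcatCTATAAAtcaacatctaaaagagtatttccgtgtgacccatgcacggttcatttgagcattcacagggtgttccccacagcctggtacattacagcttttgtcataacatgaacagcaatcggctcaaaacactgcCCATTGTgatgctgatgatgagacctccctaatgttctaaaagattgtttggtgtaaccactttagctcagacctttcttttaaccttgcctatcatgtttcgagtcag
KLF5, downstream start, chr13:73058755-73059054, strand +, overlapped by 2 peaks: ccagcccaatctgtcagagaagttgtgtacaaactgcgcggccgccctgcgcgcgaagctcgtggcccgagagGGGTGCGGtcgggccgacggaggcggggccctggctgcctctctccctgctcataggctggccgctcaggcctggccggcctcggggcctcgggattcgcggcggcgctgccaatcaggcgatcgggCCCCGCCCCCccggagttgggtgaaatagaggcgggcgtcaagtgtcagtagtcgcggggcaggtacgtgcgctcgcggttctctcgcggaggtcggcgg
ELF3, chr1:202010337-202010636, strand +, overlapped by 1 peak: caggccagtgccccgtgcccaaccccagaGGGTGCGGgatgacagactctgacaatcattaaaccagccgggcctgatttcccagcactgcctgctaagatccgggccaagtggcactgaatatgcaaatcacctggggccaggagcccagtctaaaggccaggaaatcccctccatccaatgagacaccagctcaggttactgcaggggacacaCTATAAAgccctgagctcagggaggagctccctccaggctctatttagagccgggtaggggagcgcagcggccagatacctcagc
CDX2, chr13:27969266-27969565, strand -, overlapped by 1 peak: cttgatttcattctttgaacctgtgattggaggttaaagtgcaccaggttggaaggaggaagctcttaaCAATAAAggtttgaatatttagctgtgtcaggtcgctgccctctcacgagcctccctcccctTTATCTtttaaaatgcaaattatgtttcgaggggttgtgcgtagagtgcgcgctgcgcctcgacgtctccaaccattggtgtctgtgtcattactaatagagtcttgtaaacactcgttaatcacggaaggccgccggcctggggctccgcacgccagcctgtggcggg
HNF4A, downstream start, chr20:44400989-44401288, strand +, overlapped by 0 peaks: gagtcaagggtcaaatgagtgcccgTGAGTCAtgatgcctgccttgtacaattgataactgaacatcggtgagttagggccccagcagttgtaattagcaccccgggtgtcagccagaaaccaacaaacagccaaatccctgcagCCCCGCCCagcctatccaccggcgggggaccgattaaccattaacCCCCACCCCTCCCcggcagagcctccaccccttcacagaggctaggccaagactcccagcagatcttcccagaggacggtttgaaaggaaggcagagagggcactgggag
KLF5, center of the peak past the gene's end, chr13:73090433-73090732 (GRCh38), strand +: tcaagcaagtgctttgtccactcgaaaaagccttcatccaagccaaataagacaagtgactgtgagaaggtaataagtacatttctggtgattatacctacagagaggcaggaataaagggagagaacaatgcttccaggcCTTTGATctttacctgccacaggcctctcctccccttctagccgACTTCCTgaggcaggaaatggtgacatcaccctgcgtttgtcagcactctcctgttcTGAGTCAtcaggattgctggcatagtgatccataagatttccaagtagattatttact

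The window at the upstream start of KLF5 had a GC content of 40.7% and the window at the downstream start 71.3%, against a median of 58.7% over all 35116 promoter windows. The downstream start of KLF5 held 3 KLF words, and a KLF word was present in 56.2% of all promoter windows. The ELF3 and CDX2 windows and the upstream KLF5 window each held a CDX word, which 9.7% of all windows contained. The ELF3 and upstream KLF5 matches read CTATAAA, which also holds the letters TATAAA of a TATA box. In ELF3 the match lay a short way upstream of the start site, where such a box would lie. The word cannot tell a CDX site from a TATA box, and which of them these matches are was not tested. The SOX word of the upstream KLF5 window was found in 3.2% of all windows, the GATA word of CDX2 in 10.3% and the AP-1 word of HNF4A in 7.7%. The 300 bases at the center of the KLF5 peak past the gene's end held an ETS, an AP-1 and a TCF word. The shares of all promoter windows with these words were 8.2%, 7.7% and 2.6%, but this peak is intergenic. Within 250 bp of the center, a longer stretch, the words occurred in 11.5%, 20.1% and 4.1% of all peaks. Within 500 bp they occurred in 24.9%, 57.3% and 12.9% of peaks more than 1 kb from a protein-coding start site.

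The genes fell into 3 groups by the unstimulated signal of their peaks. GRHL2, ELF3 and EHF had a strong peak, defined as a control signal at or above the 75th percentile of all peaks (5.91, or 60.1 normalized reads). KLF5, SOX9, CDX2 and GATA6 had peaks but none this strong. CDX1 and HNF4A had none. A strong peak within 20 kb was found for 32.9% of the 20020 protein-coding genes and any peak for 70.1%, so 3 and 7 of the 9 genes are near these shares. The cutoff passed close to several genes. EHF (5.91) and ELF3 (5.96) lay just inside it, and SOX9 (5.90) and KLF5 (5.79) just outside. With levels expressed per kb of peak, which matters for the SOX9 peak of 1864 bp and the GATA6 peak of 1615 bp, the order in control cells was GRHL2 (7.13), ELF3 (5.96), EHF (5.91), KLF5 (5.79), CDX2 (5.37), SOX9 (5.00) and GATA6 (4.15). On the same scale the order with IFN-β was GRHL2 (6.27), KLF5 (5.81), ELF3 (5.00), EHF (4.69), CDX2 (4.28), SOX9 (3.85) and GATA6 (3.59). Without library values it cannot be said which neighbours in these orders differ beyond their spread.

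**Figure D1:**
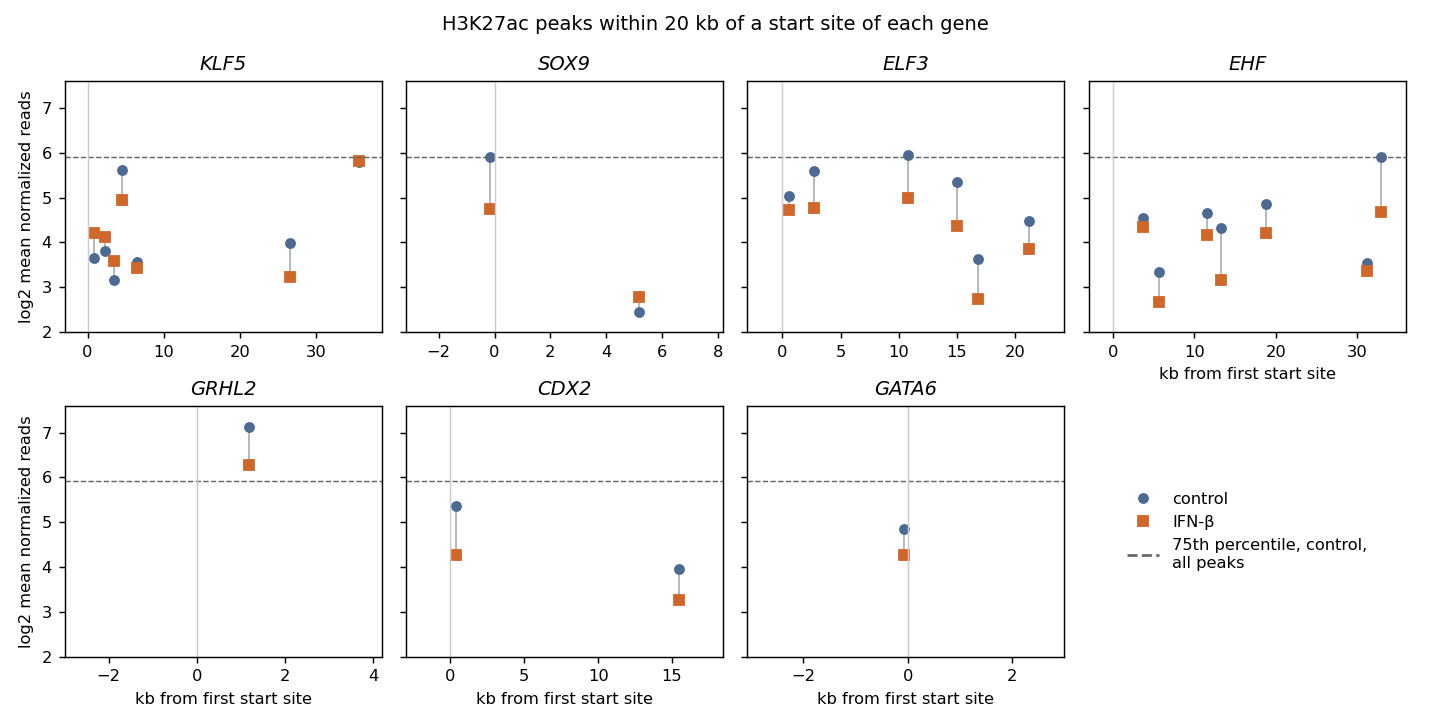
Signal of each H3K27ac peak within 20 kb of a start site, as log2 of mean normalized reads (vertical axis), against the distance of its center in kb from the first start site of the gene (horizontal axis), for the 7 genes with a peak. Circles are the authors' mean of 2 control libraries, squares that of 2 IFN-β libraries, and the dashed line is the 75th percentile of control signal over all peaks (5.91). KLF5, ELF3 and EHF carry 7, 6 and 7 peaks, and the IFN-β value lies above the control value at 4 KLF5 peaks and 1 SOX9 peak.

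KLF5, EHF and ELF3 had many peaks of moderate height. KLF5 and EHF each had 7 peaks and ELF3 had 6. Only 0.84% of protein-coding genes had 7 or more peaks within 20 kb and 1.85% had 6 or more, and the median over genes with a peak was 2. These genes have 4, 11 and 9 annotated start sites, so the stretch searched was longer than for SOX9 or CDX1 with 1 start site each. Peaks were counted as the authors called them. Of all 20087 peaks, 18364 were 1000 bp wide. Neighbouring peaks were not merged here, so these counts need not be of separate elements. The strongest control peaks of KLF5, EHF and ELF3 stood at the 48.6th, 53.5th and 55.7th percentile of the strongest peaks of all genes with a peak.

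EHF is an ETS factor of epithelia, and all 7 of its peaks were centered in introns on chromosome 11. The strongest (34653530 to 34654530), 32.9 kb from the first start site, had a log2 signal of 5.91 in control cells and 4.69 with IFN-β, or 60.1 and 25.8 normalized reads. The other 6 EHF peaks ranged from 3.34 to 4.85 in control cells and from 2.68 to 4.35 with IFN-β. None of the 7 was higher with IFN-β than without, and neither were most peaks of the table, of which 5.93% were higher. Relative to the median difference of all peaks (-0.69), 5 of the 7 EHF peaks were above it. A peak beyond the limit, 20.9 kb upstream of the first start site, was stronger still in control cells, with 6.19 against 5.72 with IFN-β.

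ELF3, the other epithelial ETS factor, had 6 peaks between 202007986 and 202029646 on chromosome 1. The peak over its main promoter (202010185 to 202011185, centered in the 5′ untranslated part of the canonical transcript) had a log2 signal of 5.59 in control cells and 4.77 with IFN-β. Its strongest peak (202018256 to 202019256) lay past the end of the gene, with 5.96 in control cells and 5.00 with IFN-β. A peak of similar height followed at 202022426 to 202023426, with 5.35 and 4.37. The ELF3 signal was spread over the promoter and the downstream flank, and it was lower with IFN-β at all 6 peaks, as at most peaks of the table. Relative to the median difference of all peaks, 2 of the 6 ELF3 peaks were above it.

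GRHL2, a grainyhead factor that maintains epithelial junctions, showed the opposite arrangement, a single and very strong peak. The peak lay in an intron on chromosome 8 (101493132 to 101494132), 1.2 kb past the first start site. Its log2 signal was 7.13 in control cells and 6.27 with IFN-β, or 140.1 and 77.2 normalized reads. The control value stood at the 97.6th percentile of all peaks and at the 97.0th of the 11334 peaks within 1 kb of a protein-coding start site.

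SOX9 had a broad peak over its start site (chromosome 17, 72119915 to 72121779), where the start of the antisense gene SOX9-AS1 lay 37 bp from the peak center and that of SOX9 173 bp. Its log2 signal was 5.90 in control cells and 4.75 with IFN-β. A second, very weak peak over the 3′ part of the gene (72125712 to 72126712) had 2.44 and 2.79, which is 5.4 and 6.9 normalized reads. CDX2 had a peak centered in coding sequence near its start (chromosome 13, 27968433 to 27969433), with 5.37 in control cells and 4.28 with IFN-β. Its other peak (27953376 to 27954376), with 3.96 and 3.27, was centered 350 bp from the start of the lncRNA gene LINC00543. GATA6 had 1 peak (chromosome 18, 22168713 to 22170328), which spanned its start site and that of GATA6-AS1. The GATA6 values were 4.84 in control cells and 4.28 with IFN-β.

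CDX1 and HNF4A had no peak within 20 kb of any of their 1 and 10 start sites. The peak nearest to CDX1 lay 145.0 kb away and closest to HMGXB3. The peak nearest to HNF4A lay 44.7 kb away, over the coding part of FITM2, and had a log2 signal of 4.33 in control cells and 2.58 with IFN-β. The intestinal homeobox pair was thus unequal, with 2 peaks at CDX2 and 0 at CDX1. A peak missing from the table shows only that none was called there by the authors and does not show that the mark was absent.

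IFN-β and control values were then compared at each of the 26 peaks. Over all 20087 peaks the difference (IFN-β minus control) had a median of -0.69 on the log2 scale, so the values below are also given relative to this shift. The median over the 26 peaks was -0.65. Relative to the shift, 15 peaks were above it, 10 below and 1 equal to it. A difference above 0 was found at 5 of the 26 peaks (19.2%) and at 5.93% of all peaks. A difference more than 0.5 above the shift was found at 7 of the 26 (26.9%) and at 10.8% of all peaks, and a difference more than 1 above it at 4 of the 26 and at 2.44% of all peaks. A difference more than 0.5 below the shift was found at 1 of the 26 (3.85%) and at 7.53% of all peaks. Of the 7 peaks more than 0.5 above the shift, 5 belonged to KLF5. Without KLF5, 2 of 19 peaks (10.5%) remained, which is close to the share over all peaks.

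**Figure D2:**
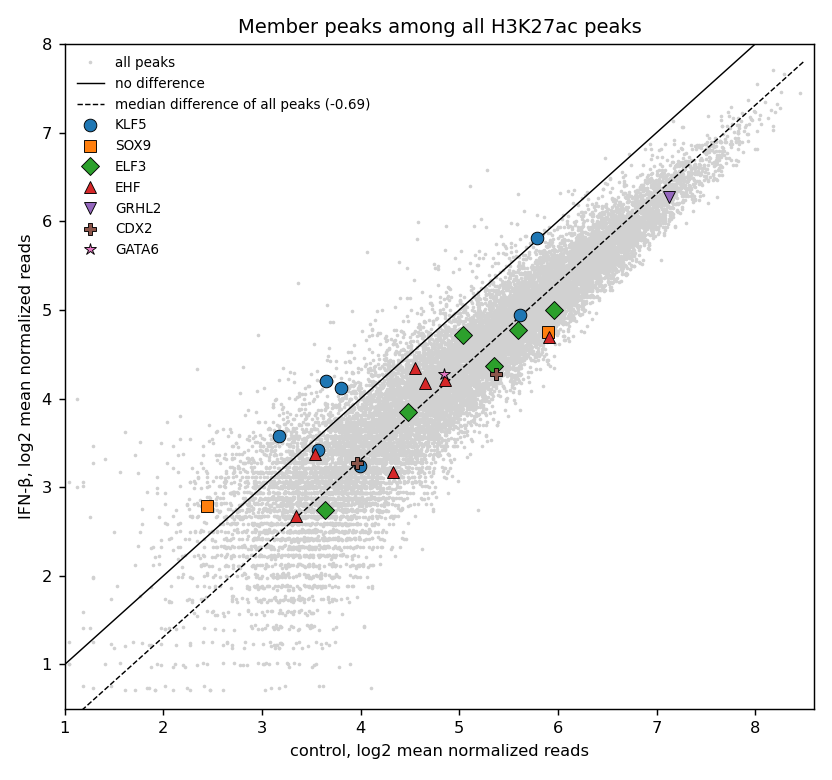
Log2 of mean normalized reads with IFN-β (vertical axis) against that in control cells (horizontal axis) for all peaks in the plotted range (gray) and for the 26 peaks near the 7 genes (colored symbols). The solid line marks no difference and the dashed line the median difference of all peaks (-0.69). Most colored symbols lie along the dashed line, and 4 KLF5 peaks and 1 SOX9 peak lie above the solid line.

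KLF5, the Krüppel-like factor of the crypt, held 5 of these 7 peaks. The 3 peaks between its upstream and its downstream start site, in the part of the gene outside the canonical transcript, all had more signal with IFN-β. The peak 0.8 kb from the upstream start (chromosome 13, 73055317 to 73056317) had a log2 signal of 3.65 in control cells and 4.20 with IFN-β, or 12.6 and 18.4 normalized reads. The next (73056715 to 73057715) had 3.80 and 4.12, and the one after it (73058005 to 73059005), which ends at the downstream start, had 3.17 and 3.58. Their differences of 0.55, 0.32 and 0.41 lay 1.24, 1.01 and 1.10 above the median of all peaks. These are weak peaks, all 3 at or below the 20th percentile of control signal. They lie close together between 73055317 and 73059005 and may not be separate stretches of signal.

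The strongest KLF5 peak lay 13.0 kb past the end of the gene (73090082 to 73091082), in intergenic sequence, and is the one whose center is printed above. This peak was centered 35.6 kb from the first start site of KLF5 and 15567 bp from the nearest one. Its log2 signal was 5.79 in control cells and 5.81 with IFN-β, or 55.3 and 56.1 normalized reads, which made a difference of 0.02 and lay 0.71 above the median of all peaks. The remaining KLF5 peaks had less signal with IFN-β than without. The peak that begins directly past the downstream start and is centered in coding sequence (73059008 to 73060008) had 5.62 and 4.94. Its difference of -0.68 is 0.01 above the median of all peaks. The intronic peak at 73060926 to 73061926 had 3.57 and 3.42, a difference of -0.15, which lay 0.54 above the median of all peaks. The intergenic peak at 73080993 to 73081993 had 3.99 and 3.24. Summed over its 7 peaks, KLF5 had 167.8 normalized reads in control cells and 154.7 with IFN-β. This summed difference of -0.12 on the log2 scale stood at the 96.9th percentile of the 14034 protein-coding genes with a peak. Between 20 and 100 kb from KLF5 there were 3 further peaks, with differences of -0.91, -0.74 and -0.44.

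As a measure of how far such differences scatter at a given depth, each peak was set beside the 1000 peaks nearest to it in mean signal. The 3 peaks in the 5′ part of KLF5 stood at the 99.1st, 98.2nd and 96.8th percentile of the differences of these peaks, whose SDs were 0.46, 0.46 and 0.55. The peak past the end of KLF5 stood at the 99.2nd percentile (SD 0.26). The weak SOX9 peak had a difference of 0.35, at the 90.3rd percentile of a wide distribution (SD 0.85). At the other end, the strongest EHF peak had a difference of -1.22 and stood at the 2.5th percentile, and the SOX9 promoter peak, with -1.15, at the 5.0th. EHF as a whole did not lie so low, since the sum over its 7 peaks differed by -0.73, at the 53.6th percentile of genes, and its peak 20.9 kb upstream, with -0.47, stood at the 89.0th percentile of the peaks nearest in mean signal. The GRHL2 peak, with -0.86, stood at the 33.8th percentile, the CDX2 promoter peak, with -1.09, at the 10.2nd, and the GATA6 peak, with -0.56, at the 64.5th. The 6 ELF3 peaks stood between the 18.1st and the 87.1st percentile. These percentiles describe the scatter across peaks and carry no information on the spread between libraries.

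**Figure D3:**
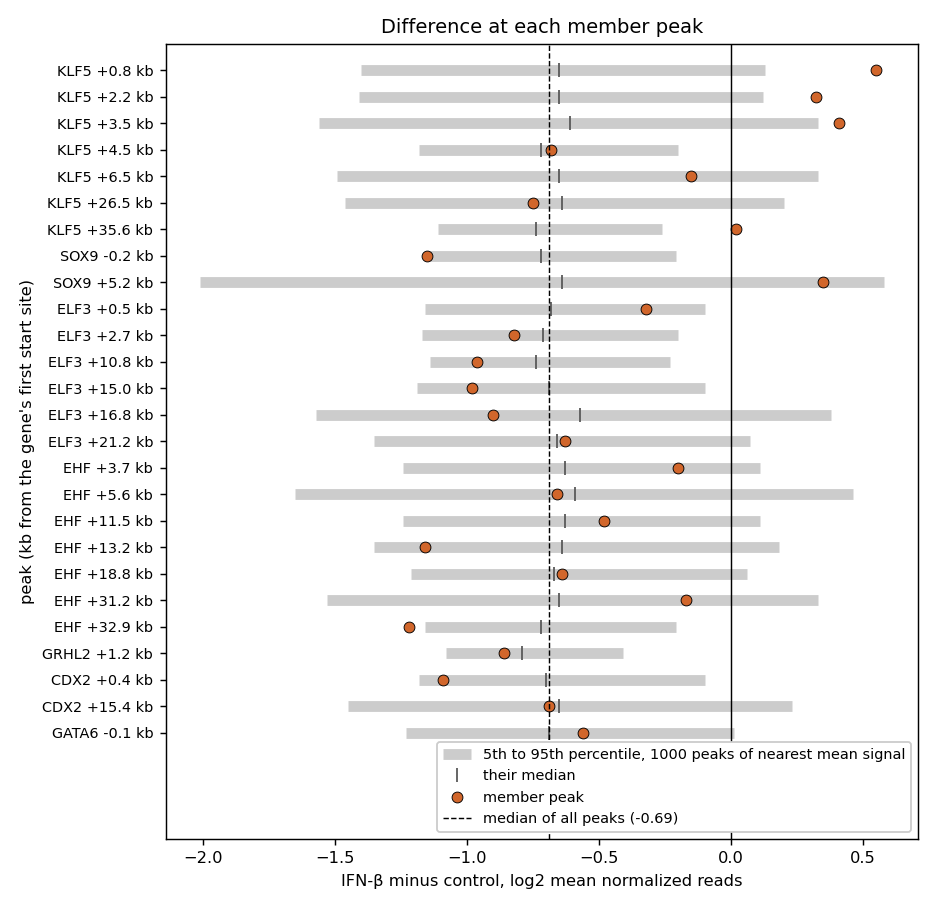
Difference between IFN-β and control on the log2 scale (horizontal axis) at each of the 26 peaks (orange circles), labelled by gene and by kb from the first start site. Gray bars span the 5th to the 95th percentile of the 1000 peaks nearest in mean signal, ticks give their median, and the dashed line is the median of all peaks (-0.69). The circles of 4 KLF5 peaks lie to the right of their bars, and those of the strongest EHF peak and the SOX9 promoter peak at or beyond the left end.

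Outside the 20 kb limit, the downstream flank of EHF held 3 peaks that were also high relative to the shift, and these were picked out after their values were seen. The peak 42.3 kb from the nearest EHF start site had a log2 signal of 2.60 in control cells and 3.66 with IFN-β, or 6.1 and 12.6 normalized reads. The peak 39.2 kb away had 3.21 and 3.77, and the peak 43.5 kb away had 4.35 and 4.19. They stood at the 99.4th, 98.3rd and 87.9th percentile of the peaks nearest in mean signal. All 3 were closer to EHF than to any other protein-coding gene. EHF was not alone in this, as a weak peak 32.2 kb from ELF3, on its downstream flank, lay 0.57 above the shift. That ELF3 peak had 2.86 in control cells and 2.74 with IFN-β, at the 76.4th percentile of the peaks nearest in mean signal. A peak 43.4 kb from ELF3 on the same flank went the other way, with 6.05 and 4.88. Its difference of -1.17 stood at the 4.0th percentile. In control cells this peak was stronger than any ELF3 peak within the 20 kb limit.

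Sequence composition went with the difference over the whole table. With all peaks split by GC content into 10 classes of equal size, the median difference was -0.47 in the class of lowest GC and -0.82 in that of highest GC. The 26 peaks had a median GC content of 45.9%, with a range from 30.5% to 71.4%, against 58.1% for all peaks. Measured within these classes, 5 of the 26 peaks were more than 0.5 above the median of their class, against 8.69% of all peaks, and 2 were more than 0.5 below it, against 8.12%. Of these 5 peaks, 4 belonged to KLF5 and 1 to SOX9. The 3 peaks in the 5′ part of KLF5 had GC contents of 34.3%, 30.5% and 49.7%, and were 1.02, 0.79 and 1.00 above the median of their class. The peak past the end of KLF5 (46.2%) was 0.61 above. The part of GC content in these differences was not tested further.

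Of the 26 peaks, 14 (53.8%) lay more than 1 kb from a protein-coding start site, compared with 43.6% of all peaks. Within 500 bp of the peak center, the GATA word occurred in 14 of the 26 peaks (53.8%), against 27.5% of all peaks and 40.7% of those more than 1 kb from a start site. Within 250 bp of the center the GATA word remained in 5 of the 26 (19.2%), against 13.5% of all peaks, a smaller gap. The CDX word occurred in 11 (42.3%), against 27% and 39.3%, and within 250 bp in 7 (26.9%), against 13.4% of all peaks. The AP-1 word was present in 14 (53.8%), against 33.4% of all peaks but 57.3% of those far from a start site. The KLF word was present in 19 (73.1%), against 83.6% of all peaks. The GATA words were spread over KLF5, ELF3, EHF and GATA6. The ISRE center was found in 2 of the 26 peaks (7.7%), against 11.6% of all peaks, namely the intergenic KLF5 peak at 73080993 and the CDX2 peak at LINC00543. Neither was higher with IFN-β, with differences of -0.75 and -0.69. The 4 KLF5 peaks with a difference above 0 held no exact ISRE center in this window.

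The remaining words were rare. The ETS, HNF4 and TCF words occurred in 3 of the 26 peaks each (11.5%), against 21.1%, 10.8% and 8.6% of all peaks. The SOX word occurred in 2 (7.7% against 7.5%), at EHF and KLF5, and the GRHL word in 1 (3.8% against 5.8%), in the intronic KLF5 peak. The KLF5 peak past the gene's end held 6 of the 10 words, more than any other of the 26 peaks.

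The same reading was applied to a list of 38 other transcription factors of epithelia and gut. A peak within 20 kb was found for 25 of them and a strong peak for 14. Among all protein-coding genes the shares were 70.1% and 32.9%, so both counts are near them. For 5 of the 25, OVOL1, GATA4, ZNF750 and GRHL3 among them, the strongest peak lay nearer to the start site of another protein-coding gene, whereas all 26 peaks of the genes described above were nearest to a start site of their own gene among protein-coding genes. Among the highest control signals, all in peaks of 1000 bp, were those at TCF7L2 (8.45, the DNA-binding partner of β-catenin), HES1 (6.98, a Notch target), ELF1 (6.97) and KLF3 (6.93). Among the 13 genes of the list without a peak were ATOH1, FOXA2, GATA5, ISX and PDX1. At the strongest peak of each gene the difference had a median of -0.82, with 0 of 25 above 0. Over the strongest peaks of all protein-coding genes with a peak the median was -0.77, and 5.93% of all peaks were above 0. Among the 25 genes, the difference was highest at ETV4 (-0.34), OVOL1 (-0.42, at the start site of AP5B1) and KLF4 (-0.53). It was among the lowest at HNF4G (-1.31) and ASCL2 (-1.05). None of the 25 was more than 0.5 above the median of all peaks, and 2, HNF4G among them, were more than 0.5 below it. Over all peaks these shares were 10.8% and 7.53%. They were not counted over the strongest peaks of all genes, which would be the closer comparison. By the distance over both group values, HNF4G (0.26) was among the 2 genes most like EHF and FOXA3 (0.42) among the 2 most like ELF3, and HES1 (0.19) and ELF1 (0.22) were most like GRHL2. This likeness rests on 2 group means per gene, taken per peak, and the FOXA3 peak was 2584 bp wide.

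Markers of the labelled cell type were checked by the same rule. All 11 epithelial and colorectal markers had a peak, 8 of them strong, among them EPCAM (7.10 in control cells) and KRT8 (6.66). The strongest peaks of CDH1 (4.89), LGALS4 (3.68, nearest to ECH1) and CLDN3 (3.25) did not reach the cutoff. Of all protein-coding genes, 70.1% had a peak and 32.9% a strong one. For 4 of the 11 the strongest peak lay nearer to the start site of another protein-coding gene, as with VIL1 (7.48), whose strongest peak was 232 bp from the start of CTDSP1, and 5 of the 8 strong peaks were nearest to the marker itself. Of 10 mesenchymal markers 4 had a peak and 1, ZEB1 (5.93), reached the cutoff, and on the scale per kb 0 did. Of the 5 blood markers 2 had a peak within 20 kb, and for both the strongest peak lay nearest to the start site of another gene, as with CD68, whose strongest peak was 121 bp from the start of EIF4A1. The 3 liver markers had none. As a check of the treatment, 11 of 12 interferon-related genes had a peak (2 of them, for STAT2 and IRF9, nearest to another gene), and the median difference at their strongest peaks was -0.03, with 4 above 0 and 8 more than 0.5 above the median of all peaks. Of all peaks, 5.93% were above 0 and 10.8% were more than 0.5 above that median, shares not counted over strongest peaks alone. The strongest peaks of all protein-coding genes with a peak had a median difference of -0.77.

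**Figure D4:**
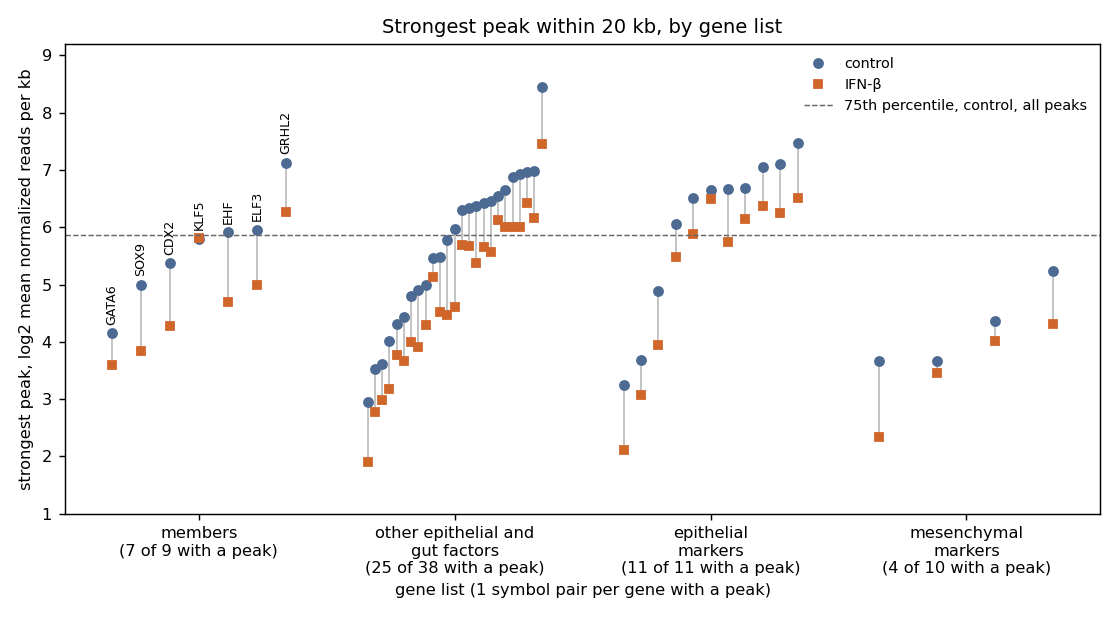
Strongest peak within 20 kb of each gene with a peak, as log2 of mean normalized reads per kb (vertical axis), for the 7 genes described here, other epithelial and gut factors, epithelial markers and mesenchymal markers (horizontal axis, genes ordered by control signal). Circles are control and squares IFN-β group means, and the dashed line is the 75th percentile of control signal per kb over all peaks (5.86). KLF5 is the only one of the 7 genes whose square is not below its circle. The KLF5 peak shown lay 35.6 kb from the first start site of the gene.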

How the data were processed

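The authors trimmed the reads of 2 IFN-β, 2 control and 1 input library with FastP (version 0.19.3 per the submitters' notes), aligned them to GRCh38 with bowtie2, called peaks with MACS2 against the input, and merged and counted them with DiffBind and DESeq2. The deposited signal columns are on the log2 scale and give the mean normalized reads of a peak across the 4 H3K27ac libraries and in either group. The fold-change, p-value and FDR columns of the authors' comparison were not used. Differences were computed here from the group columns. The lowest group values, 0.889 (control) and 0.664 (IFN-β) normalized reads, were under 1 read, and the depth per library was not given in the table.

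All 39 sequence names matched the GRCh38 reference, and 1 peak ended beyond its sequence. Start sites and gene parts came from GENCODE release 44, using all transcripts for distances and the canonical transcript for gene parts. Percentiles are the percentage of values at or below the given one. A strong peak and a fold of 0.5 on the log2 scale, after subtracting the median of all peaks, replaced a test. Words were sought within 500 bp of the peak center. Python 3.11.15, pandas 2.3.3, numpy 2.4.6, pysam 0.24.0, samtools 1.23.1 and matplotlib 3.10.9 were used. The code for the percentile among peaks of like signal was run on simulated data with the same spread at every signal. That run cannot show how the percentile behaves where the spread varies with signal, as it does here. The genes, gene lists and words were chosen with earlier results of these data known. Named are the 9 genes and all their peaks. Of the other factors, named are those 5 with the highest signal, 3 with the highest and 3 with the lowest difference, and 2 most like each gene with a strong peak, and some of these are not reported here. Alternatives changed the distance, the start sites, the cutoff, the scale, the centring, the fold and the sequence window.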

Additional observations from a re-analysis of the deposited data

How the results depend on the processing

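No paired analysis was possible because the table holds group means, and for the same reason no library could be left out. The number of genes with a peak was 7 or 8 under every distance tried, while the number of peaks was 17 at 5 kb, 37 at 50 kb and 43 at 100 kb. Genes with a strong peak numbered 6 at the 50th percentile (all with a peak but GATA6) and 1 (GRHL2) at the 90th, and between 2 and 4 otherwise. Peaks more than 0.5 above the shift numbered 4 at 5 kb and 11 at 50 and at 100 kb, 4 with a fold of 1, and 2 without KLF5, the last added after the data were seen. Those below it numbered 0 at 5 kb, from gene records and with a fold of 1, and 2 at 50 and at 100 kb.
Over the strongest peaks of all protein-coding genes with a peak, the median difference was -0.77, lower than the -0.69 of all peaks. The median difference over the 7 strongest peaks, -0.96, became -0.27 after centring on all peaks, -0.23 within GC classes and -0.22 among peaks of like signal, since these subtract the shift. GATA6 then turned from -0.56 to 0.13, 0.24 and 0.13, and KLF5 from 0.02 to -0.12 when its peaks were summed. At 5 kb or from gene records, the KLF5 peak past the gene's end fell outside the limit. The strongest KLF5 peak was then that at 73059008 to 73060008, with 5.62 in control cells and 4.94 with IFN-β, a difference of -0.68. Word matches numbered 39 instead of 72 within 250 bp, 42 at 5 kb and 112 at 100 kb, as fewer or more bases were read. The SOX9 peak and the 3 KLF5 peaks that were higher with IFN-β and weak in control cells rest on group means of 5.4 to 18.4 normalized reads.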
